A study of Mus musculus with 4 samples.

Results

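Germ cell genes, in the sense used here, are genes whose best known work is in primordial germ cells, spermatocytes or oocytes, and 9 of them were followed in mouse induced epiblast stem cells (iEpiSCs) out of 29267 genes in the tables. The 9 were Prdm1, Ddx4, Tdrd1, Tdrd5, Tex15, Sycp3, M1ap, Rhox5 and Tuba3a, all protein-coding and all matched by symbol. They had been picked with the difference between the genotypes already seen, so their levels and fold changes are a description and carry no test. The 4 libraries came from iEpiSCs of genotype c-Jun-/- (knockout, replicates 2 and 3) and of genotype wild type (replicates 2 and 3). c-Jun, the product of Jun, pairs with other factors to form AP-1. Cells of both genotypes had been converted from naive embryonic stem cells kept in 2i and LIF to the primed state in medium with 20 ng/ml Activin A, 20 ng/ml bFGF, 2 µM XAV939 and 2.5 µM IWR-1, and were then kept in the Activin A and bFGF medium. The labels do not state which piece of Jun was removed, whether a line is 1 clone or whether replicates were separate cultures. The spread between replicates, on which the p-values rest, may thus be technical, and genotype and cell line cannot be told apart. The libraries held 6341342 and 4666559 expected counts in the knockout and 5027635 and 5339937 in wild type. Jun itself had 28.9 and 29.6 CPM (counts per 1e6 counts) in knockout libraries, against 106 and 121 CPM in wild-type libraries.

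Germ cells are set aside from the epiblast by signals that switch on PRDM1, and later in development they need proteins that body cells do not make. Some of these build the nuage, a cytoplasmic body rich in Tudor-domain proteins in which piRNAs, small RNAs that silence transposons, are made. Others build the synaptonemal complex that holds chromosome pairs together in meiosis. Many such genes are kept silent outside the germ line by methylation of CpG-rich promoters and by the PRC1.6 repressor complex, whose E2F6 and MGA subunits bind E2F and E-box motifs. The primed epiblast is the tissue from which germ cells arise, and cells of this state carry low levels of some germ cell transcripts.

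Promoter sequences are shown for Tdrd5 and M1ap, which stood higher in knockout libraries, for Meioc, a meiosis gene outside the 9 that passed the test below, and for Ddx4 and Sycp3, which stayed near the limit of counting. Each run holds the 250 bases before the RefSeq start (GRCm38.p6), read 5′ to 3′ on the strand of the gene. Capitals mark exact matches, on either strand, to the E2F motif GCGGGAA or the E-box CACGTG.
Tdrd5, chr1:156303349-156303598, minus strand: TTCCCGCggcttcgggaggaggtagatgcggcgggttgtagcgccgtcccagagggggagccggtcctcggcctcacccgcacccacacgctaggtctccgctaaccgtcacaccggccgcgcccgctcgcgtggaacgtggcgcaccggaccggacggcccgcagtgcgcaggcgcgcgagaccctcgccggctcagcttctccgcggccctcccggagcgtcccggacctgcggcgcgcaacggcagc
M1ap, chr6:82946672-82946921, plus strand: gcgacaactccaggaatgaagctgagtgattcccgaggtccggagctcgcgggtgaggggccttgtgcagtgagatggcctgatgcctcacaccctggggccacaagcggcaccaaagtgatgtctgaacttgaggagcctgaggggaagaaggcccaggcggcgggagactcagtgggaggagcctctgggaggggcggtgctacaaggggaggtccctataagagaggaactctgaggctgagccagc
Meioc, chr11:102665335-102665584, plus strand: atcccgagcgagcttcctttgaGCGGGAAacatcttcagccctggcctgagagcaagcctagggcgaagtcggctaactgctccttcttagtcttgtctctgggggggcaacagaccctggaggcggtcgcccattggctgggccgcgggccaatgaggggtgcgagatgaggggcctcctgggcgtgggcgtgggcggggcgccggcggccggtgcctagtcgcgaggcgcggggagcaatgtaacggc
Ddx4, chr13:112652311-112652560, minus strand: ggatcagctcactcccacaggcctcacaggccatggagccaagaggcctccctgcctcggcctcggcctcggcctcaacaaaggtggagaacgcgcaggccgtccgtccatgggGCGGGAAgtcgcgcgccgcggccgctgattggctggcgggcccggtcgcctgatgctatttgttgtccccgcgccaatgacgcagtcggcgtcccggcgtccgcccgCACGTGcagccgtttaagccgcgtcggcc
Sycp3, chr10:88459337-88459586, plus strand: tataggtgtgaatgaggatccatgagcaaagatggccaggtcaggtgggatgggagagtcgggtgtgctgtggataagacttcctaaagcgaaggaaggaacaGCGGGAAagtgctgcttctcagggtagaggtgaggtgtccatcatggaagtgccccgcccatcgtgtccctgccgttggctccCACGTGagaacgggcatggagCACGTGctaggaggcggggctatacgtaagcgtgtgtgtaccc
The RefSeq table held a window for 8 of the 9 genes, all but Tex15. The E2F motif was found in 4 of these 8 windows, those of Ddx4, Tdrd5, Sycp3 and Tuba3a, and in 3.82% of all 32851 windows. The E-box was found in 3 of them, those of Ddx4, Tdrd1 and Sycp3, against 6.02% of all windows. The AP-1 motif TGANTCA was found in 1 of the 8, that of Prdm1, and in 6.75% of all windows. The Prdm1 window, chr10:44458749-44458998, lies inside the gene span given below. That of Rhox5, chrX:37754358-37754607, lies well before the span given below. Neither window is thus at the gene start used for positions here. The Tdrd5 window also lies inside the gene span given below, though close to the gene start. The Meioc window lies inside the Meioc span, which starts at chr11:102663716. Both the E2F motif and the E-box were more common in windows with 10 or more CpG, at 8.27% and 9.37%. No matches to different motifs overlapped in the windows looked at. The windows of Tdrd5 and Ddx4 held 40 and 31 CpG, that of Meioc 22, and those of Sycp3 and M1ap 12 and 9, where the median window held 6. The window of M1ap held none of the 3 motifs. The Tdrd5 and Ddx4 windows were both rich in CpG and held an E2F match, and that of Ddx4 also held an E-box, which that of Tdrd5 did not. A link between these features and transcript levels was not tested.

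Levels of the 9 genes spanned the range from well expressed to undetected. Tdrd5 led in both genotypes, with a mean of 69.7 TPM (transcripts per 1e6 transcripts, a level per length) in knockout and 44.3 TPM in wild-type libraries. This placed it above 90.3% and 89.2% of all genes in knockout libraries, and above 84.2% and 85% in wild-type libraries. In the knockout the order by mean TPM went on with Rhox5 (17.6), Tex15 (16.3), M1ap (9.98), Prdm1 (4.56), Tuba3a (1.31), Ddx4 (0.70), Sycp3 (0.505) and Tdrd1 (0.16). Rhox5 and Tex15 did not separate there beyond the spread between libraries, nor did Ddx4 from Tuba3a above it or from Sycp3 below it. In wild type the order after Tdrd5 was Rhox5 (12.6), Prdm1 (5.72), Tex15 (1.48), Ddx4 (0.94), M1ap (0.60), Tuba3a (0.53), Sycp3 (0.195) and Tdrd1 (0), and there Tuba3a did not separate from M1ap above it or from Sycp3 below it, nor Sycp3 from Tdrd1. The filter on low counts was passed by 5 of the 9 (Tdrd5, Tex15, M1ap, Prdm1 and Rhox5), and the other 4 (Ddx4, Tdrd1, Sycp3 and Tuba3a) had at most 10 counts in any library. The floor used here, 3 counts in a library, stood for 0.476 to 0.652 CPM. M1ap passed through its knockout libraries alone, with 3 counts in each wild-type library. The name "active in pluripotent cells" thus has values behind it in both genotypes for Tdrd5, Tex15, Prdm1 and Rhox5, in the knockout for M1ap, and at this depth not for Tdrd1 or Sycp3.

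**Figure D1:**
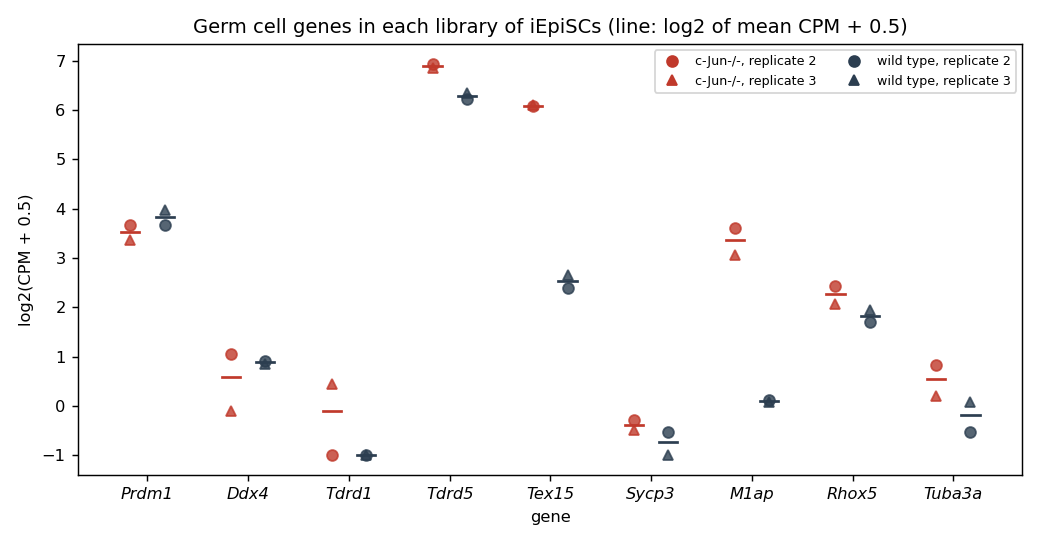
Levels of the 9 germ cell genes, as log2(CPM + 0.5), in c-Jun-/- (red, left of each pair) and wild-type (dark, right) libraries; circles are replicate 2, triangles replicate 3, and lines log2(mean CPM + 0.5). Tex15 and M1ap show the widest gaps between genotypes, and Ddx4, Tdrd1, Sycp3 and Tuba3a lie near the bottom in both.

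Of the 5 genes that passed the filter, 3 (Tex15, M1ap and Tdrd5) lay past the threshold as higher in the knockout, adjusted p under 0.05, as did 8.21% of all 12598 tested genes. Both knockout libraries lay above both wild-type libraries in CPM for 4 of the 5, where 27% of tested genes did so, and below them for 1 (Prdm1), where 26.9% did. The genes were picked on this contrast, so nothing is read from these counts. Summed over the 9 genes, knockout libraries held 222 and 207 CPM, against 96.7 and 108 CPM in wild-type libraries. Most of that gap came from Tex15 and Tdrd5.

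**Figure D2:**
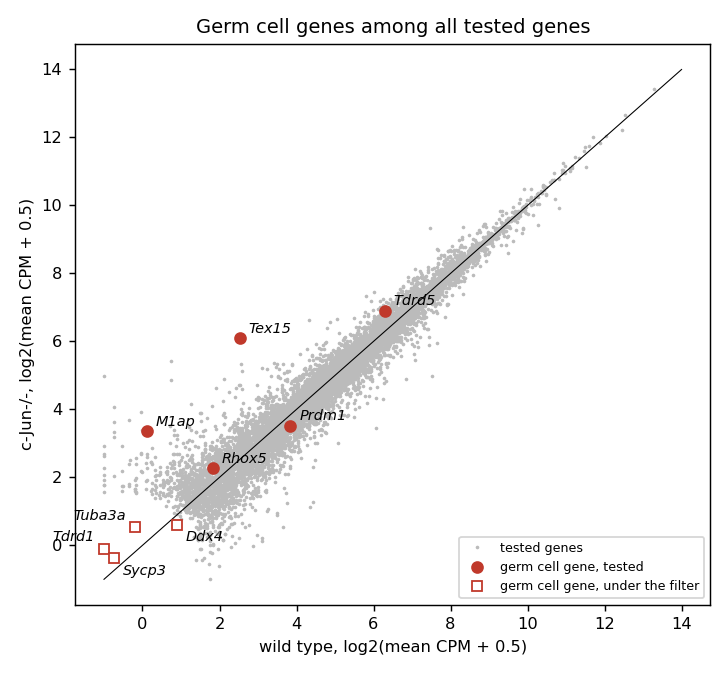
Mean level of each tested gene in c-Jun-/- (vertical) against wild-type (horizontal) libraries, as log2(mean CPM + 0.5), grey, with the germ cell genes in red; open squares are those under the filter on low counts, and the line marks equal levels. Tex15 and M1ap lie far above the line, Tdrd5 and Rhox5 close above it and Prdm1 just below it.

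Prdm1 encodes BLIMP1, a zinc finger repressor needed to set primordial germ cells apart, and it is also made in endoderm. Its gene spans chr10:44437177-44528501, minus strand (GRCm38, as are all positions). It had 77 and 45 counts in knockout libraries, against 62 and 82 in wild-type libraries, which is 12.2 and 9.79 CPM in the knockout and 12.3 and 15.3 CPM in wild type. The genotypes lay side by side, with the higher knockout library almost level with the lower wild-type library. Its log2 fold change was -0.31 ± 0.25 (knockout over wild type, ± standard error, n = 2 per genotype, as for all fold changes here).

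Prdm1 acts in a group of factors and surface markers of germ cell founding, of which 18 others were listed and 13 tested. Of these, 2 rose (Ifitm3 and Ifitm1), 3 fell (Kit, Fgf8 and Sall4) and 8 did not pass, with a median log2 fold change of -0.05, against 0.0015 for all tested genes (2 of 13 is 15.4% and 3 of 13 is 23.1%, against 8.21% and 7.32% of all genes). Ifitm3, also known as Fragilis, marks nascent primordial germ cells, and rose to 139 and 151 CPM in knockout libraries, against 58.7 and 63.6 CPM in wild-type libraries (log2 fold change 1.24 ± 0.10, edgeR adjusted p = 6.41e-11). Ifitm1 rose by 0.51 ± 0.11 (edgeR adjusted p = 0.00115). Kit, the receptor that germ cells need to migrate and survive, fell to 64.2 and 53.9 CPM in the knockout, against 170 and 177 CPM in wild type (-1.54 ± 0.10, edgeR adjusted p = 3.31e-13). In all 3 the libraries of the genotypes stood well apart. Tfap2c, which acts with PRDM1, had 8.09 and 8.27 CPM in knockout libraries, against 2.57 and 5.04 CPM in wild-type libraries, and did not pass (1.09 ± 0.40, edgeR adjusted p = 0.0638). It passed without wild-type replicate 3 (1.66, edgeR adjusted p = 0.0384), with the replicate block (0.0398) and with no filter beyond a count above 0 (0.038). Without wild-type replicate 2 it stood at 0.69 (edgeR adjusted p = 0.392). Nanos3, an RNA-binding protein that protects germ cells and whose gene lies on chromosome 8, was under the filter with 5 and 11 counts in the knockout and 0 and 1 in wild type, a ratio of 15.3 (95% counting interval 2.37 to 641). Prdm14 and Dppa3, the other well known founding genes, had 0 counts in every library, which allows a level of up to that floor. Fgf8 and Sall4 are also made in the epiblast at large, as is Kit in stem cells outside the germ line.

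Among the tested genes of the piRNA pathway, Tex15 showed the widest gap. TEX15 works in the nucleus of male germ cells with the PIWI protein that guides DNA methylation to transposons. Its gene spans chr8:33516738-33585582, plus strand. It had 423 and 314 counts in knockout libraries, against 24 and 31 in wild-type libraries, which is 67.1 and 68.3 CPM in the knockout and 4.75 and 5.78 CPM in wild type. Both knockout libraries lie close together and far above both wild-type libraries. The log2 fold change was 3.67 ± 0.19, a 12.8-fold higher level, and lay between 3.16 and 3.83 over the alternatives. Genes of chromosome 8 were higher in the knockout as a body (median log2 fold change 0.51 over 684 tested genes, of which 57.2% were called higher), and the difference of Tex15 from that median was 3.16. Tex15 ranked second of these 684 genes by fold change, and the next one stood at 2.91. The 11 tested genes whose starts lie within 1 Mb of that of Tex15 had log2 fold changes between 0.13 and 1.61 with a median of 0.55, and 7 of them were higher. The nearest of them on either side, Purg and Ppp2cb, stood at 0.13 ± 0.28 and 0.62 ± 0.09, and with chromosome 8 genes centred Purg stood at -0.38 and Ppp2cb at 0.11, which ended the Ppp2cb call (edgeR adjusted p = 0.502).

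Tdrd5, which encodes a Tudor protein of the nuage needed for sperm formation, was the most abundant of the 9. The gene spans chr1:156255296-156303664, minus strand. It had 774 and 529 counts in knockout libraries, against 377 and 435 in wild-type libraries, which is 123 and 115 CPM in the knockout and 74.6 and 81.2 CPM in wild type. The libraries of each genotype lay close together and the genotypes did not overlap. The log2 fold change was 0.61 ± 0.10, a 1.53-fold higher level, with a range of 0.55 to 0.68 over the alternatives. An antisense gene across Tdrd5, 4930518J20Rik, held 1 count over knockout and 4 over wild-type libraries, against the 1303 and 812 counts of Tdrd5 itself.

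Ddx4 and Tdrd1 stayed at the edge of detection. DDX4, the mouse Vasa protein, is an RNA helicase of the nuage and a standard germ cell marker. Its gene (chr13:112598333-112652475, minus strand) had 10 and 2 counts in knockout libraries, against 7 and 7 in wild-type libraries. The knockout libraries lie on both sides of wild type, and the ratio of summed counts was 0.819 (95% counting interval 0.346 to 1.91). Tdrd1, a Tudor protein gene of the nuage (chr19:56826209-56870012, plus strand), had 0 and 4 counts in the knockout and 0 and 0 in wild type. All its counts came from knockout replicate 3, while knockout replicate 2 was at 0 like both wild-type libraries, and no fold is given. Of 10 tested genes within 1 Mb of Tdrd1, 1 was higher and 1 lower, with a median log2 fold change of 0.05. The nearest, Ccdc186, starts 4.02 kb away and did not pass (0.04 ± 0.13). Vwa2, which starts 48.0 kb away on the other side, had 5.07 CPM in the knockout and 1.24 CPM in wild type. It was called higher (2.00 ± 0.57, edgeR adjusted p = 0.0133). This call was lost without knockout replicate 2 (0.0932), knockout replicate 3 (0.0943) or wild-type replicate 2 (0.164) and with DESeq2 (0.0537), over a range of 0.00575 to 0.164.

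Of 24 other genes of the piRNA pathway and nuage, 6 were tested, 8 had 0 counts in every library and 10 lay under the filter. Rnf17, which encodes another Tudor protein of male germ cells, was called higher, with 13 and 14 counts in knockout libraries against 1 and 3 in wild-type libraries (2.64 ± 0.84, edgeR adjusted p = 0.0289, ratio of counts 6.45 with a 95% counting interval of 2.25 to 25.4). Its call was lost without any one of the 4 libraries (edgeR adjusted p = 0.119 without knockout replicate 2, 0.292 without knockout replicate 3, 0.306 without wild-type replicate 2 and 0.13 without wild-type replicate 3) with DESeq2 (0.145) and with no filter beyond a count above 0 (0.0565), over a range of 0.028 to 0.306. Tdrkh, a Tudor protein of mitochondria that takes part in piRNA trimming, fell to 30 and 22.4 CPM in the knockout, against 45.1 and 43.1 CPM in wild type (-0.73 ± 0.16, edgeR adjusted p = 0.0011), and kept its call in all 13 alternatives. Tdrd7 had 8.41 and 6.74 CPM in knockout libraries, against 11.3 and 12.5 CPM in wild-type libraries, and did not pass (-0.64 ± 0.29, edgeR adjusted p = 0.15). Of the Tudor genes named here, Tdrd5 and Rnf17 were called higher and Tdrkh lower. Tdrd5 had been picked with this contrast already seen. Rnf17 passed the filter on low counts through its knockout libraries alone, and its call was not stable. No direction for Tudor genes as a family is thus read from these calls. The PIWI genes themselves were scarce: Piwil1 had 0 counts in every library, Piwil2 had 5 and 1 in the knockout and 8 and 1 in wild type, and Piwil4 had 1 and 0 in the knockout and 0 and 3 in wild type. Pld6, a mitochondrial enzyme gene of primary piRNA processing, lay under the filter with 15 and 3 counts in the knockout and 1 and 0 in wild type (ratio 17.2, 95% counting interval 2.72 to 716).

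M1ap and Sycp3 are the meiosis genes of the 9. M1AP takes part in crossover formation in male meiosis. Its gene spans chr6:82946902-83030309, plus strand. It had 74 and 36 counts in knockout libraries, against 3 and 3 in wild-type libraries, which is 11.7 and 7.83 CPM in the knockout and 0.593 and 0.56 CPM in wild type. The wild-type libraries sit at the floor, and the ratio between the knockout libraries is wider than for Tex15 or Tdrd5. The log2 fold change was 4.05 ± 0.55, and the ratio of summed counts was 17.5 (95% counting interval 7.79 to 48.8). It lay between 3.71, without knockout replicate 2, and 4.30 over the alternatives. Its tested neighbours Hk2 and Dok1 did not pass (-0.18 ± 0.09 and -0.11 ± 0.32). Of 29 tested genes within 1 Mb of M1ap, 1 was higher and 4 were lower, with a median of -0.08.

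**Figure D3:**
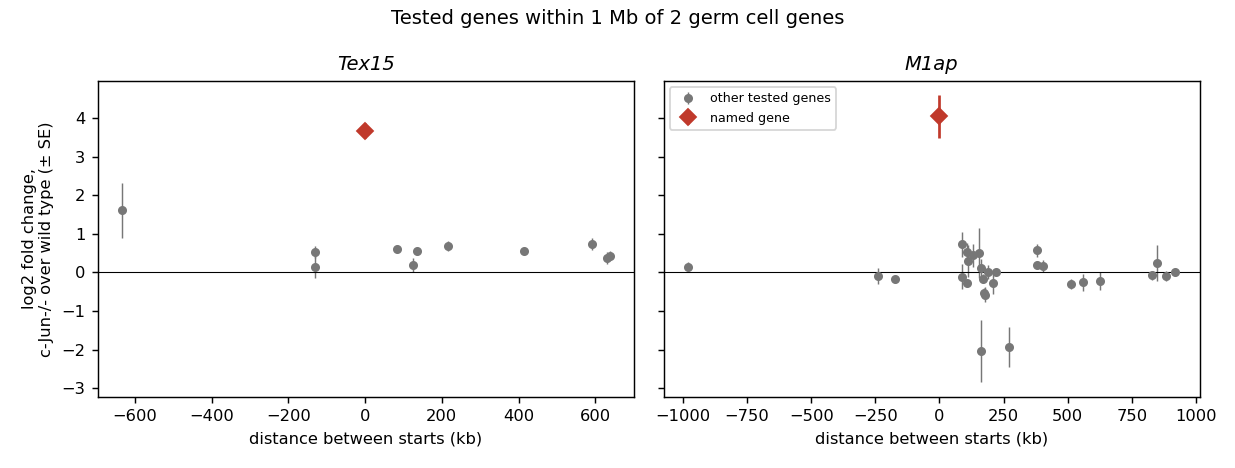
Log2 fold change, c-Jun-/- over wild type with its standard error, of Tex15 and M1ap (red diamonds) and of other tested genes (grey) against the distance between gene starts in kb. The genes around Tex15 lie above 0 with a median of 0.55, and those around M1ap have a median of -0.08.

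Sycp3, which encodes a lateral element protein of the synaptonemal complex, was at the limit of counting. The gene (chr10:88459569-88473236, plus strand) had 2 and 1 counts in knockout libraries, against 1 and 0 in wild-type libraries, and no fold is given since both sums are at or under the floor. It overlaps Chpt1 on the other strand, which had 68 counts over the knockout and 47 over wild type, and without strand information reads of the shared part cannot be told apart. Sycp1 and Sycp2, partners of SYCP3, had at most 1 count in any library. All 3 were thus at the limit of counting in both genotypes at this depth.

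Of 40 other genes of meiotic prophase, 39 were matched and 15 tested; 3 rose (20%), 1 fell (6.67%) and 11 did not pass, against 8.21% and 7.32% of all tested genes, with a median log2 fold change of 0.18. Meioc, which encodes a partner of YTHDC2 that keeps germ cells in meiotic prophase, rose: it had 57 and 24 counts in knockout libraries, against 0 and 2 in wild-type libraries, and the summed counts had a ratio of 38.7 (95% counting interval 10.4 to 325). Its log2 fold change was 5.07 ± 0.77 (edgeR adjusted p = 1e-05), its call was kept in all 13 alternatives (adjusted p 4.22e-11 to 0.00185), and it stood at 8.27 without wild-type replicate 3, which leaves 0 counts in wild type. Ythdc2, which many cells make, had 23.6 and 22.8 CPM in the knockout and 35 and 24.4 CPM in wild type and did not pass (-0.35 ± 0.18, edgeR adjusted p = 0.222). Syce2, a chromosome 8 gene for the central element of the synaptonemal complex, had 18.4 and 20.2 CPM in the knockout and 10.5 and 11.8 CPM in wild type, and was called higher (0.79 ± 0.23, edgeR adjusted p = 0.0139). Once the median of chromosome 8 was taken off its genes, it stood at 0.28 and did not pass (edgeR adjusted p = 0.501), and its call was also lost with DESeq2 (0.0652), without knockout replicate 3 (0.0684) and without wild-type replicate 2 (0.0748). Syce2 overlaps Gcdh on the other strand, which held 174 counts over the knockout and 122 over wild type. Rec8, the meiotic cohesin subunit, had 27 and 23.7 CPM in the knockout and 16.2 and 18.1 CPM in wild type (0.57 ± 0.19, edgeR adjusted p = 0.0408). Its call did not hold without knockout replicate 2 (0.248), wild-type replicate 2 (0.179) or wild-type replicate 3 (0.0705), with total counts (0.0545) and with DESeq2 (0.154), over a range of 0.0234 to 0.248. Mlh3, a mismatch repair gene needed for crossovers, fell to 15.7 and 13.5 CPM in knockout libraries, against 29.7 and 27.8 CPM in wild-type libraries (-0.97 ± 0.19, edgeR adjusted p = 3.96e-04). Recombination genes under the filter pointed different ways: Dmc1 had 6 and 3 counts in the knockout and 0 and 1 in wild type (ratio 8.6, 95% counting interval 1.19 to 377), while Msh4 had 4 and 2 in the knockout and 12 and 10 in wild type (ratio 0.261, 95% counting interval 0.0864 to 0.663).

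Taking the piRNA, meiosis and methylated germline promoter lists as 1 body without the 9 genes, 71 of 73 genes were matched, 20 had 0 counts in every library, 30 lay under the filter and 21 were tested. A gene high in 1 genotype alone can pass the filter through it, as Meioc and Rnf17 did through the knockout, so these shares are not independent of the direction. Of the 21, 4 rose (Meioc, Rnf17, Syce2 and Rec8) and 2 fell (Tdrkh and Mlh3), which is 19% and 9.52%, against 8.21% and 7.32% of all tested genes, and 15 did not pass. Their median log2 fold change was 0.17. The methylated germline promoter list gave 3 of the 21, and these did not pass (Tex19.1 at 0.86 ± 0.62, Stag3 at 0.67 ± 0.44 and Zcwpw1 at 0.28 ± 0.36). The count of 4 was 1 with DESeq2 and 1 or 2 when a library was left out, Meioc being the gene that was called in every setting. Off chromosome 8, where 5.4% of tested genes were higher and 7.68% lower, 3 of the remaining 20 were higher and 2 lower. Across all genes, 1034 were higher and 922 lower, a split that became 651 and 916 with chromosome 8 genes centred.

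**Figure D4:**
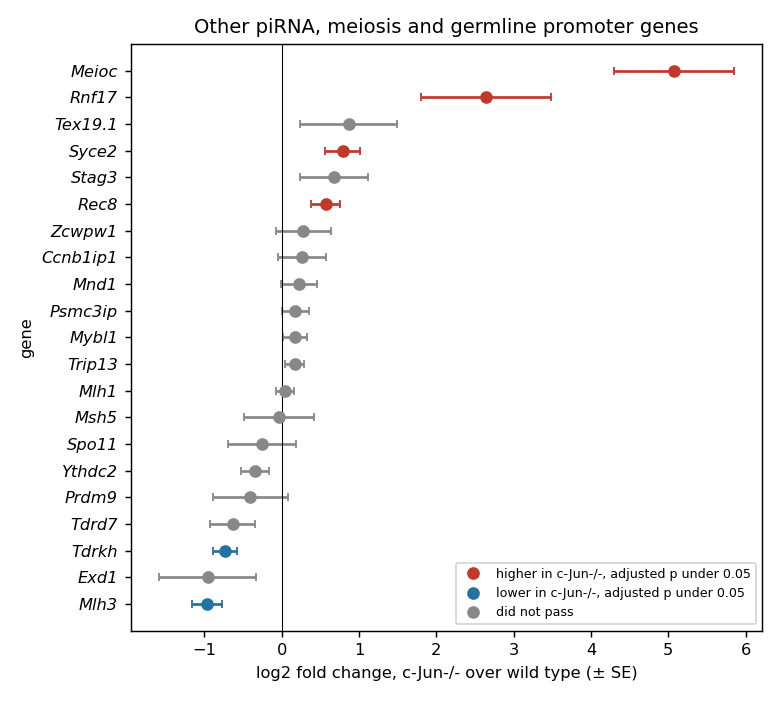
Log2 fold change, c-Jun-/- over wild type with its standard error, of the 21 tested genes of the piRNA, meiosis and methylated germline promoter lists outside the 9 germ cell genes; red passed as higher, blue as lower and grey did not pass. Meioc at 5.07 and Rnf17 at 2.64 stand apart from the other 19, which lie between -0.97 and 0.86.

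Rhox5 and Tuba3a stand outside both pathways. Rhox5 is the founding homeobox gene of the X-linked Rhox cluster, known from testis, placenta and embryonic stem cells. It spans chrX:37804842-37808876, plus strand, and had 31 and 17 counts in knockout libraries, against 14 and 18 in wild-type libraries. In CPM the values were 4.92 and 3.7 in the knockout and 2.77 and 3.36 in wild type, so the lower knockout library stood just above the higher wild-type library. The log2 fold change was 0.50 ± 0.49, and 0.27 without knockout replicate 2. The cluster members Rhox6 and Rhox9 had 0 counts in every library. Of the Xlr genes, an X-linked family active in germ cells, Xlr3b fell to 1.59 and 1.74 CPM in the knockout, against 19 and 20.7 CPM in wild type, and Xlr3c to 1.27 and 0.652 CPM, against 5.54 and 6.16 CPM in wild type. Their log2 fold changes were -3.57 ± 0.34 and -2.52 ± 0.57 (edgeR adjusted p = 2.3e-09 and 0.00174). The Xlr3 copies are near-identical and reads can be split among them, which makes their values uncertain. Xlr3a did not pass (-0.38 ± 0.29).

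Tuba3a encodes the alpha tubulin of testis. It spans chr6:125278274-125286042, minus strand, and had 8 and 3 counts in knockout libraries, against 1 and 3 in wild-type libraries, and the summed counts had a ratio of 2.63 (95% counting interval 0.778 to 11.3). The interval spans 1, and the lower knockout library had as many counts as the higher wild-type library. Its near-identical copy Tuba3b had 0 and 1 counts in the knockout and 1 and 0 in wild type, and reads can be split between them. The alpha tubulins that most cells use were far more abundant, with Tuba1a at 2393 and 2436 CPM in the knockout and 1926 and 1974 CPM in wild type (0.31 ± 0.04, edgeR adjusted p = 6.08e-07).

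Regulators tied to the silencing of germ cell genes were mostly above the filter on low counts. The exception was Dnmt3l, with 5 and 1 counts in the knockout and 0 and 2 in wild type. Of 26 genes of PRC1.6, DNA methylation and H3K9 methylation, 25 were tested, 6 were higher, 1 was lower and 18 did not pass, with a median log2 fold change of 0.07 (24% higher and 4% lower, against 8.21% and 7.32% of all genes). Tet1, 1 of the 6, encodes an enzyme that oxidises methylated DNA, so not all of the list are silencers. Dnmt3b, a de novo DNA methyltransferase, was lower, at -0.19 ± 0.05 (edgeR adjusted p = 0.00786), though not past the threshold when knockout replicate 2 was left out (0.0596). Uhrf1, which brings DNMT1 to replicating DNA, rose by 0.27 ± 0.07 (edgeR adjusted p = 0.00481) in all 13 alternatives. Tfdp1, the dimer partner of E2F6, is a chromosome 8 gene and was called higher (0.71 ± 0.08, edgeR adjusted p = 4.27e-08). Centring chromosome 8 genes gave 0.20 and ended the call (edgeR adjusted p = 0.102). Trim28, a co-repressor that brings in H3K9 methylation, was higher by 0.16 ± 0.04 (edgeR adjusted p = 0.00981), a call that leaving out wild-type replicate 2 ended (0.0567). The calls of the other 3, Mga, Hells and Tet1, were each lost with DESeq2 and with total counts, and without knockout replicate 2 or wild-type replicate 3, and Tet1 also without knockout replicate 3 and with chromosome 8 centred.

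Markers of spermatids, oocytes and 2-cell-like cells were scarce, and levels in the other lists varied from gene to gene. Of 10 spermatid markers 7 had 0 counts in every library, Prm1, Prm2, Tnp1 and Tnp2 among them, and the list summed to 2.06 and 2.61 CPM in knockout libraries, against 0.593 and 0.373 CPM in wild-type libraries. Izumo1, a sperm fusion protein gene, was the most abundant of them, with 11 and 6 counts in the knockout and 3 and 2 in wild type. The 10 oocyte markers, with Zp1, Zp2 and Figla at 0, summed to 1.27 and 1.31 CPM in the knockout and 1.38 and 2.61 CPM in wild type, and the 10 markers of 2-cell-like cells to 0.159 and 0.435 CPM in the knockout and 0.791 and 0.746 CPM in wild type. Naive pluripotency markers, of which Dppa3, Prdm14, Nr0b1 and Tcl1 were at 0, summed to 27.9 and 28.3 CPM in knockout libraries, against 19.4 and 18.7 CPM in wild-type libraries. Of 5 tested, 2 were called higher, which is 40%, against 8.21% of all tested genes. Tbx3 had 18 and 14 counts in the knockout and 0 and 0 in wild type, and so passed the filter through the knockout alone. Klf2 stood at 10.6 and 9.57 CPM in the knockout and 4.75 and 5.04 CPM in wild type. The Klf2 call was lost in 6 of 12 alternatives, which were each of the 4 libraries left out, DESeq2 and chromosome 8 centred. Endoderm markers, which matter for Prdm1, summed to 220 and 217 CPM in the knockout and 391 and 415 CPM in wild type, with Afp and Ttr at 0 and Cer1 at 32.8 and 29.6 CPM in the knockout and 176 and 188 CPM in wild type. Most of the gap between these sums came from Cer1. Foxa2 stood at 151.1 and 149.4 CPM in the knockout and 146.5 and 162.9 CPM in wild type, and did not pass (-0.04 ± 0.08). Of 6 tested endoderm markers, 3 were lower (Cer1, Sox17 and Gata6), which is 50%, against 7.32% of all tested genes. The Gata6 call was lost with DESeq2 and without knockout replicate 2, knockout replicate 3 or wild-type replicate 3. The somatic gonad list, with Hsd3b1 at 0 and 4 of its 10 genes tested, summed to 99.8 and 117 CPM in the knockout and 109 and 128 CPM in wild type. Most of that sum came from Sox9, at 65.5 and 82.2 CPM in the knockout and 71.2 and 88.1 CPM in wild type. The primed epiblast markers summed to 2641 and 2693 CPM in knockout libraries, against 2988 and 2947 CPM in wild-type libraries, and none of the 10 was at 0. Of these 10, 7 were lower and 1 (Pou5f1) higher, which is 70% and 10%, against 7.32% and 8.21% of all tested genes. Otx2 stood at 43.8 and 49.4 CPM in the knockout and 103 and 106 CPM in wild type (-1.18 ± 0.11), and Sox2 at 22.4 and 20.4 CPM in the knockout and 52.8 and 42 CPM in wild type (-1.14 ± 0.16). The calls of Pou5f1 and Pou3f1, 1 of the 7, were each lost without wild-type replicate 3, and also without knockout replicate 3 for Pou5f1 and knockout replicate 2 for Pou3f1. The part of these shifts in the values of the germ cell genes was not tested. In these bulk libraries a change in the number of cells that make a transcript and a change in its amount per cell cannot be told apart.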

How the data were processed

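RNA was measured in 4 libraries of iEpiSCs, grouped by sample title and genotype label. Per the labels' protocols, total RNA was taken with TRIzol and libraries were made with a TruSeq RNA kit. The labels do not say that strand was kept. For each library the authors deposited an RSEM table by gene, with Bowtie2, bcl2fastq and build mm10 named in the submitters' processing notes; no version or option is stated there. The columns are expected count, TPM and FPKM per gene, per the file headers. The expected counts are estimates in which reads shared between genes are split, so copies of a family are uncertain. The deposited TPM values were used to order genes by level, and the deposited FPKM values were not used.

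Of 29267 gene identifiers, 28756 were matched to GENCODE M21 (GRCm38, the assembly of mm10). These counts were rounded, filtered with filterByExpr (12598 genes left) and scaled by TMM (factors 0.98799 to 1.0085). The genotypes were compared with edgeR 4.0.16 (R 4.3.3, glmQLFit and glmQLFTest, no covariate), with Benjamini-Hochberg adjustment over all tested genes and a threshold of 0.05. The script was tested on simulated data. Standard errors are the fold change divided by the square root of F. CPM uses TMM-scaled library sizes. Count intervals are exact, conditional on the summed counts, and like the floor of 3 counts they cover counting error only. Replicates were not copies of 1 library: their counts varied beyond sampling (chi-square over its degrees of freedom was 2.49 in the knockout and 2.53 in wild type).

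The 9 genes and all lists were chosen with earlier results of these data known. Named genes are the 9, up to 4 called genes of each list with the smallest p and any that a small count refers to, the nearest tested gene on each side (for Tdrd5 the neighbouring genes are not reported here), and the gene of most similar levels for the 3 largest fold changes. The meiosis and piRNA genes under the filter, Tfap2c, Nanos3, Ythdc2, Mga, Hells, Tet1, Xlr3a, Izumo1, Dnmt3l, Stag3, Zcwpw1, Tex19.1, Pou5f1, Pou3f1, Foxa2 and the markers at 0 were named after their values were seen. Alternatives were RLE scaling, total counts, DESeq2 1.42.0, limma voom (limma 3.58.1), other filters, a replicate block, chromosome 8 left out or centred, and leaving out each library.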

Additional observations from a re-analysis of the deposited data

How the results depend on the processing

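Over 13 alternatives, the log2 fold changes of the 5 germ cell genes that passed the filter kept their sign in all, and 59 of 64 values moved by less than the spread between replicates. The 5 that moved further were those of Tex15 with chromosome 8 centred (3.16) and without wild-type replicate 2 or 3 (3.54 and 3.83), and of M1ap (3.71) and Rhox5 (0.27) without knockout replicate 2. With no chromosome 8 genes in the fit there is no value for Tex15, Syce2 or Tfdp1. The count of genes higher in the knockout fell to 668 without chromosome 8 genes and 651 with them centred, since both take away the chromosome's own shift, and the count of lower genes was 593 with DESeq2, of which the cause was not tested. The 4 other germ cell genes that were higher became 1 with DESeq2 and 1 to 2 with a library left out, and the 2 lower ones were called in every setting. For 49 other tested genes, 569 values kept their sign and their side of the threshold, 55 lost a call and 3 (of Tfap2c) gained one. The 3 that changed sign were Purg (-0.38) and Sugp1 (-0.0122) with chromosome 8 centred, and Dok1, which ran from -0.268 to 0.0791 with a library left out. With the replicate block the counts were 1250 higher and 1127 lower genes, and 4 and 2 of the other germ cell genes. Deviations of same-numbered libraries from their genotype means had a correlation of 0.021 across genes, so the numbers do not show pairing. Where a library was left out, the lone library of its genotype was assumed to vary like the other genotype's pair. Depth limits Ddx4, Tdrd1, Sycp3 and Tuba3a. For Ddx4 and Tuba3a, differences smaller than their counting intervals were not detectable, and Tdrd1 and Sycp3 had too few counts for an interval.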

Other observations

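RSEM gives each gene the length of its transcripts weighted by their estimated share, which shows where the mix of transcripts differs. For Tdrd5, with 5 transcripts in the tables, this length was 3180 and 3273 bases in knockout libraries, against 3382 and 3426 bases in wild-type libraries, with no overlap between the genotypes. For Prdm1, with 3 transcripts, it was 4817 and 4101 bases in the knockout and 4752 and 4467 bases in wild type, which overlap. For Tex15 it was 7577 and 7516 bases in the knockout and 5405 and 8405 bases in wild type, the wild-type values resting on 24 and 31 counts. M1ap stayed at 1945 bases in every library. These are descriptions of 4 libraries and were not tested. The share of all genes whose lengths do not overlap between the genotypes was not counted, so nothing is read from the lengths of Tdrd5.

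Among all tested genes, those closest in level to the 3 germ cell genes with the largest fold changes were found by the Euclidean distance of log2(CPM + 0.5) over the 4 libraries. Hmgn3, which encodes a nucleosome-binding protein, lay nearest to M1ap (distance 0.655), with 8.88 and 11.1 CPM in knockout libraries, against 0.593 and 0.746 CPM in wild-type libraries. Hexa, a lysosomal enzyme gene, lay nearest to Tex15 (distance 1.1), with 43.5 and 36.1 CPM in the knockout and 4.94 and 5.78 CPM in wild type. Sugp1, on chromosome 8, lay nearest to Tdrd5 (distance 0.142), with 119 and 116 CPM in the knockout and 78.7 and 87.7 CPM in wild type.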
